A study of Mus musculus with 18 samples.

Results

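The expression of 10 liver genes of steroid hormone metabolism was examined: Hsd3b2, Hsd3b3, Hsd3b5, Srd5a1, Srd5a2, Akr1c6, Cyp17a1, Hsd11b1, Hsd17b2 and Hsd17b6. They were taken by symbol, and all 10 were found among the 19057 symbols of the table. The table gives gene expression in livers of 18 male ICR mice aged 10 weeks, 3 in each of 6 groups. Con mice were controls and AOS mice received alginate oligosaccharide (AOS), a breakdown product of the seaweed polysaccharide alginate, at 10 mg/kg. STZ mice were injected with streptozotocin, a toxin of the pancreatic beta cell that leaves mice short of insulin, and STZ+AOS mice received streptozotocin and AOS. A10-FMT and Con-FMT mice were injected with streptozotocin and then given, by mouth, intestinal microbiota of donors treated with AOS at 10 mg/kg or of control donors. The donors' intestinal contents were pooled, so that the donors are not replicates, and no group received streptozotocin with a sham transplant. The AOS and STZ+AOS groups occur in the sample labels and not in the account of the study. Values are RPKM, read numbers divided by the length of the transcript and by the size of the library, so levels of different genes can be set side by side, and each value comes from 1 liver of 1 mouse.

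Steroid hormones are made in the adrenal gland and the gonads and are reshaped and cleared in the liver, where oxidation or reduction of single positions of the steroid ring turns a hormone on or off. The 3-beta-hydroxysteroid dehydrogenases (Hsd3b2, Hsd3b3) act on the 3-position of the ring, and Hsd3b5, a gene of male mouse liver, encodes a relative that works mainly as a 3-ketosteroid reductase. The 5-alpha-reductases (Srd5a1, Srd5a2) reduce testosterone and other hormones, and Akr1c6, an aldo-keto reductase, reduces 17-ketosteroids. Cyp17a1 is the 17-alpha-hydroxylase and lyase on the route to androgens, Hsd11b1 regenerates active glucocorticoid, Hsd17b2 oxidizes estradiol and testosterone to weaker hormones, and Hsd17b6 oxidizes 3-alpha-hydroxysteroids.

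The 3 Hsd3b genes lie in 1 stretch on the minus strand of chromosome 3 and 2 of them, Hsd3b5 and Hsd3b2, were called lower after streptozotocin, so their upstream sequences are shown. In GENCODE M21 (GRCm38), Hsd3b5 is at chr3:98618634-98630252, Hsd3b2 at chr3:98709255-98724543 and Hsd3b3 at chr3:98741523-98763127. The RefSeq start site of Hsd3b5 lies 15282 bases beyond the upstream end of the GENCODE gene, whereas that of Hsd3b2 is at the end of its GENCODE gene. Each line gives the 250 bases before the RefSeq start site (GRCm38.p6), 5′ to 3′ on the strand of the gene. Capitals mark a match to CAAAGTNCA on either strand, the letters of an element of the HNF4 type, which was chosen after the sequences had been seen.
Hsd3b5, chr3:98645535-98645784, minus strand: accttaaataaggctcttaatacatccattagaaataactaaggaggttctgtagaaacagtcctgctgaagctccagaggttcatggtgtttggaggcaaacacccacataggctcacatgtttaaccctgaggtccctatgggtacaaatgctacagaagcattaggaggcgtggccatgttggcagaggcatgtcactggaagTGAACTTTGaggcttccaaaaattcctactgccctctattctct
Hsd3b2, chr3:98724544-98724793, minus strand: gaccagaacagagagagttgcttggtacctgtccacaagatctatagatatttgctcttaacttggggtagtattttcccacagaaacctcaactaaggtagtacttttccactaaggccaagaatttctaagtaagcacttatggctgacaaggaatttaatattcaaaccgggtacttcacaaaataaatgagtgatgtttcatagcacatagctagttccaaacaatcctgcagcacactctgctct
Hsd3b3, chr3:98763129-98763378, minus strand: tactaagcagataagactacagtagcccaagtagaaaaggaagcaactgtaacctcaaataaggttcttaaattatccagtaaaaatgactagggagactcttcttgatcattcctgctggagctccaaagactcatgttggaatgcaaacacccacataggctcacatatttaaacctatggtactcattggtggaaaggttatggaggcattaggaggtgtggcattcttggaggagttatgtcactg
The match in Hsd3b5 ended 36 bases before the start site, and 1.19% of 32851 RefSeq promoters hold such a match in 250 bases. TTCNNNGAA, the letters of the STAT5 element, occurred in none of the 3 and in 7.02% of all promoters. The best local alignment of the Hsd3b5 and Hsd3b3 sequences had 75.5% identity over 204 positions, against 55.1% over 254 positions for Hsd3b5 and Hsd3b2. RefSeq promoters of 8 of the 10 genes were matched, without Cyp17a1 and Hsd17b2, and Srd5a1, Srd5a2, Akr1c6, Hsd11b1 and Hsd17b6 held neither motif. The other genes are at chr13:69573449-69611442 (Srd5a1), chr17:74016955-74047916 (Srd5a2), chr13:4434306-4457877 (Akr1c6), chr19:46667165-46673172 (Cyp17a1), chr1:193221634-193264075 (Hsd11b1), chr8:117701904-117759027 (Hsd17b2) and chr10:127990936-128007611 (Hsd17b6).

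The neighbours on chromosome 3 share sequence in their transcripts too. The longest protein-coding transcripts of Hsd3b2 and Hsd3b3 were 93.4% identical over 1491 aligned positions, and Hsd3b5 was 76% identical to Hsd3b3 and 75.6% to Hsd3b2. Of the 50-base words of these transcripts, 25.5% (Hsd3b2), 28.7% (Hsd3b3) and 21.2% (Hsd3b5) were also present in transcripts of other genes, most often in each other or in Hsd3b6, Hsd3b4 and predicted genes. Such reads could be assigned to either gene, so the levels of Hsd3b2 and Hsd3b3 are not fully separate. The share was 16.5% for Srd5a1, 13.5% for Hsd17b6 (with Rdh1 and relatives), 6.23% for Srd5a2, 2.08% for Akr1c6 and 0% for Cyp17a1, Hsd11b1 and Hsd17b2.

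The RPKM of a library summed to 749557 to 806937 in Con and 631126 to 684659 in STZ, and 9955 to 10409 genes reached 1 RPKM. The depth in reads is not given. From the spacing of low values in 25 genes, libraries had relative depths of 0.933 to 1.069, and with GENCODE transcript lengths 1 read of Hsd3b5 was worth about 0.056 RPKM, so that 0.23 RPKM is about 4 reads. The liver of STZ mouse 3 stood apart. The distance of its whole profile from the Con mean was 53.7 on the log2 scale, against 90.6 and 89.1 for STZ mice 1 and 2 and 42.8 to 68.8 in the transplanted mice. The sum of 7 hepatocyte markers overlapped between the groups (38196 to 56949 RPKM in Con, 37165 to 51500 in STZ). Most of it was Alb, the gene of serum albumin, at a mean of 30344 RPKM in Con and 30089 in STZ, whereas of the 7 markers 3 were called higher in STZ against Con (Cps1, Tat and Ass1) and 3 lower (Apoa1, Ttr and Serpina1a). Over all genes 4087 were called in STZ against Con (33.0% of those tested higher and 5.52% lower), and 5012 without STZ mouse 3.

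In control liver the 10 genes covered a wide range of levels. Akr1c6 led with 661 ± 88.9 RPKM (mean ± SD, n = 3 mice), followed by Hsd11b1 (442 ± 62.9), Hsd3b5 (212 ± 47.2), Hsd17b2 (189 ± 12.2), Hsd17b6 (143 ± 57.3), Hsd3b3 (117 ± 30.6), Hsd3b2 (80.6 ± 5.24) and Srd5a1 (21.1 ± 0.788). Cyp17a1 (0.693 ± 0.382) and Srd5a2 (0.35 ± 0.08) were close to the limit of detection. Hsd3b5 and Hsd17b2, Hsd17b2 and Hsd17b6, Hsd17b6 and Hsd3b3, and Cyp17a1 and Srd5a2 were neighbours in this order whose means differed by less than the larger of their SDs. In STZ liver the order was another one: Hsd11b1 led, Hsd17b6 had moved to the second place, Cyp17a1 to the sixth with 70.7 ± 39.2 RPKM, and Hsd3b5 had dropped to the ninth with 3.84 ± 6.26 RPKM. The summed RPKM of the 10 genes was 1553 to 2153 in Con and 1567 to 1947 in STZ, so the sum overlapped while its makeup differed.

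**Figure D1:**
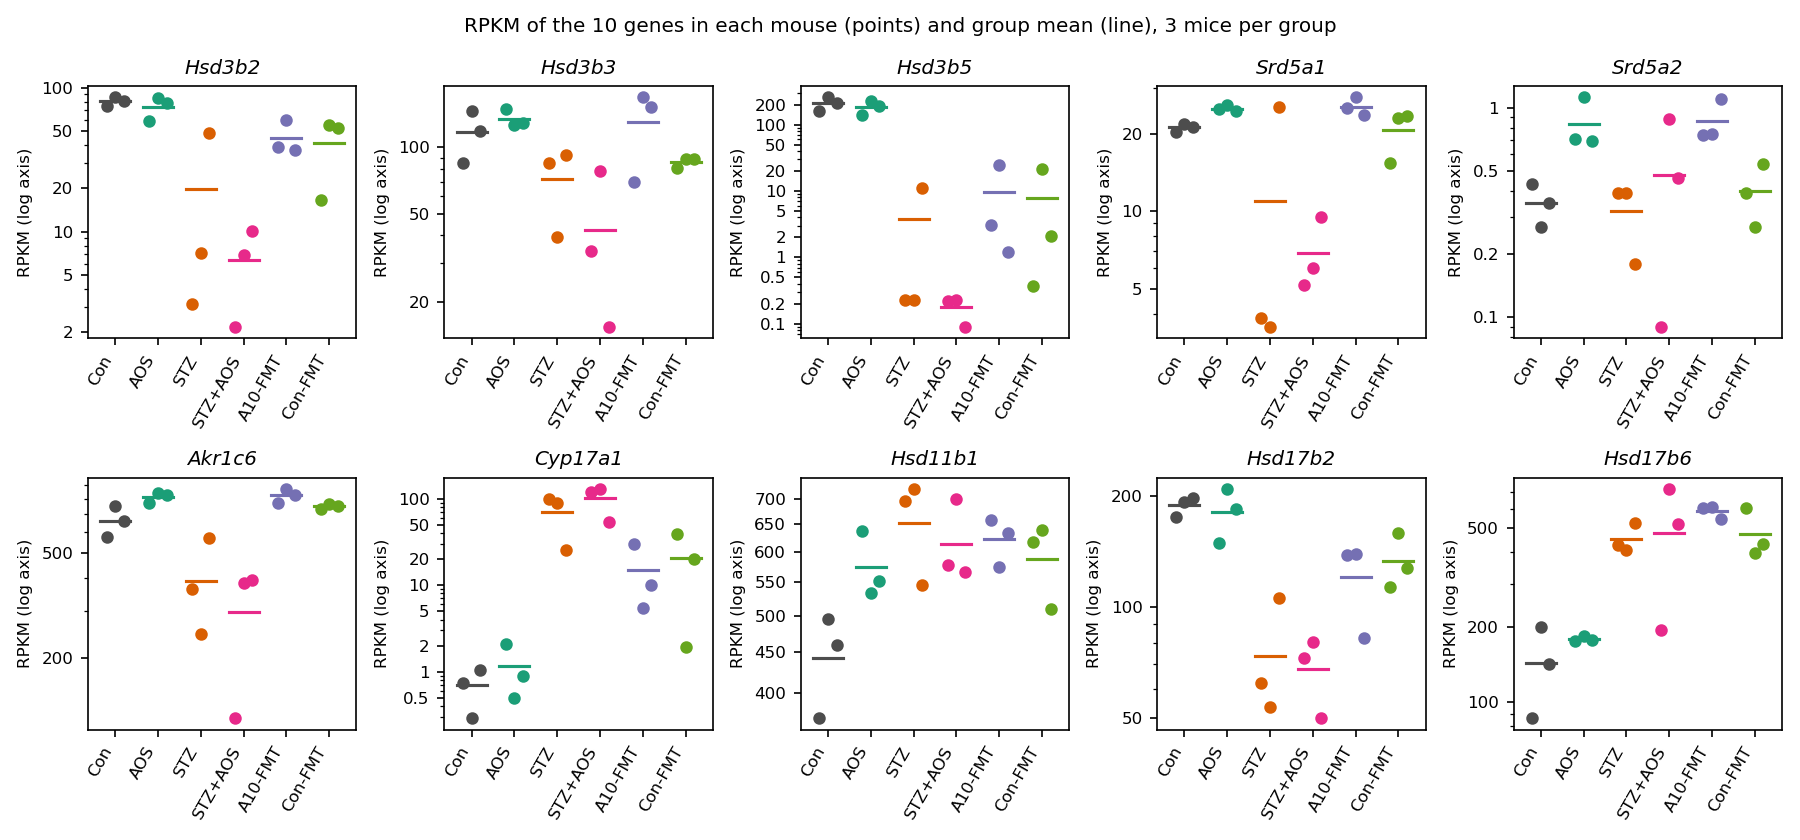
RPKM of the 10 genes (one panel each, log axes with different ranges) in the 6 groups; each point is 1 mouse, in the order 1 to 3, and each line the mean of 3 mice. Hsd3b5 lies at 142.39 RPKM or more in every Con and AOS mouse and at 24.94 or less in every streptozotocin-injected mouse, and Cyp17a1 at 2.11 or less in the former and 1.92 or more in the latter.

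STZ against Con asks what the injection alone did to these genes. Hsd3b5, Hsd3b2, Srd5a1, Akr1c6 and Hsd17b2 were lower in STZ liver, Cyp17a1, Hsd17b6 and Hsd11b1 were higher, Hsd3b3 did not pass the test and Srd5a2 was not tested. The extremes were Hsd3b5, whose mean RPKM was 55.2-fold lower (923-fold without STZ mouse 3, when the STZ mean was 0.23 RPKM), and Cyp17a1, whose mean RPKM was 102-fold higher. Of the 9 genes tested, 3 were called higher and 5 lower (limma, adjusted p under 0.05 over 10602 genes), against a background of 38.5% of all tested genes called, 33.0% higher and 5.52% lower. The median log2 difference of the 9 genes was -0.82 and that of all tested genes 0.21. When libraries were rescaled by the median ratio, the log2 median of all genes moved by -0.22 and 51.4% instead of 85.7% of the calls were higher, and Hsd11b1 alone of the 8 called genes lost its call (0.29, SE 0.13, adjusted p = 0.112). The other 7 kept their direction.

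Of the 3 Hsd3b genes, 2 were called lower in STZ. Hsd3b5 was at 163.29, 257.46 and 216.01 RPKM in the Con mice and at 0.23, 0.23 and 11.07 RPKM in the STZ mice. The groups were far apart, and STZ mouse 3 had a level well above the other STZ mice. The fitted log2 difference was -6.31 (SE 1.16, adjusted p = 0.00256), and -7.41 (SE 1.11, adjusted p = 0.000528) without STZ mouse 3. Hsd3b5 reached 1 RPKM in 9 of the 12 libraries of this fit, in 3 of 3 Con and 1 of 3 STZ libraries. Hsd3b2 was at 75.05, 85.44 and 81.38 RPKM in Con and at 3.15, 7.16 and 48.73 RPKM in STZ, again without overlap and with mouse 3 highest (log2 difference -2.78, SE 0.73, adjusted p = 0.0128). Without mouse 3 it was -3.81 (SE 0.45, adjusted p = 0.000155). Hsd3b3 was at 85.3, 146.34 and 119.27 RPKM in Con and at 84.77, 39.13 and 92.71 RPKM in STZ. These values overlapped, and the log2 difference of -0.75 (95% interval -1.55 to 0.05) did not pass the test (adjusted p = 0.122). The difference between the responses of Hsd3b2 and Hsd3b3 was not tested.

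Of the reductases, Srd5a1 was at 20.28, 21.83 and 21.3 RPKM in Con and at 3.84, 3.56 and 25.43 RPKM in STZ. STZ mice 1 and 2 lay far below Con and mouse 3 above all Con mice, so that the groups overlapped. Its call (log2 difference -1.41, SE 0.51, adjusted p = 0.0488) was close to the threshold, and it was -2.24 (SE 0.16, adjusted p = 1.01e-05) without mouse 3. Akr1c6 was at 574.17, 751.88 and 658.38 RPKM in Con and at 364.07, 247.02 and 566.59 RPKM in STZ, with every STZ mouse below every Con mouse (log2 difference -0.82, SE 0.24, adjusted p = 0.0202). Srd5a2, the isozyme of reproductive tissues, stayed at 0.27 to 0.43 RPKM in Con and 0.18 to 0.39 RPKM in STZ. It reached 1 RPKM in 1 of the 12 libraries used for this fit, and was therefore not tested.

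Cyp17a1 was barely detected in Con (0.74, 0.29 and 1.05 RPKM) and reached 97.63, 88.71 and 25.63 RPKM in STZ. All STZ mice were far above Con, and mouse 3 was the lowest of them. The log2 difference was 5.21 (SE 0.87, adjusted p = 0.00167). Cyp17a1 passed the filter through the injected groups, as 1 Con library of 3 reached 1 RPKM, and 1 was added to each value, so the log2 difference is smaller than the log2 of the RPKM ratio. Of 7 markers of steroidogenic tissue, Cyp11b1 and Lhcgr were listed at 0 in all 18 libraries, Mc2r in 17 and Cyp11a1 in 13. The other 3 were detected. Cyp21a1 averaged 6.71 RPKM in Con and 2.06 in STZ, where it was called lower, and Insl3 0.673 and 0.687 RPKM, without a call. Star averaged 0.520 RPKM in Con and 0.917 in STZ, was too low for the filter, and without the filter was called higher (log2 difference 0.33, SE 0.10, adjusted p = 0.0462), while in the fit of all 18 libraries, whose filter it passed, it was not (adjusted p = 0.0515). The 7 markers summed to 7.58 to 8.08 RPKM in Con and 2.98 to 4.77 RPKM in STZ, and their part in the difference of Cyp17a1 was not tested. In whole liver, a change in RNA per cell and a change in the share of cells that hold the RNA cannot be told apart.

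The dehydrogenases that activate or inactivate hormones split. Hsd17b6 was at 86.41, 201.02 and 142.23 RPKM in Con and at 427.28, 408.1 and 524.5 RPKM in STZ, a separation that included mouse 3 (log2 difference 1.73, SE 0.26, adjusted p = 0.00105). Hsd17b2 was at 175.38, 193.57 and 198.49 RPKM in Con and at 62.3, 53.51 and 105.71 RPKM in STZ (log2 difference -1.41, SE 0.26, adjusted p = 0.00252). Hsd11b1 was at 372.4, 494.55 and 459.86 RPKM in Con and at 694.84, 719.67 and 546.04 RPKM in STZ, a smaller rise without overlap (log2 difference 0.56, SE 0.16, adjusted p = 0.0180). STZ mouse 3 was the STZ mouse nearest to Con for Hsd17b2 and Hsd11b1 and the farthest for Hsd17b6.

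Leaving out 1 mouse at a time showed which calls in STZ against Con depended on single mice. Hsd3b5, Cyp17a1, Hsd17b2 and Hsd17b6 stayed called in all 6 such fits. The count of called genes was 5 without STZ mouse 1 and 4 without STZ mouse 2, when Hsd3b2 also lost its call (-2.50, adjusted p = 0.0515). It was 8 without STZ mouse 3 and 6 without any 1 of the Con mice. Calls over all tested genes changed too, from 4087 to 3187, 2630 and 5012 without STZ mouse 1, 2 or 3. Without Con mouse 1, 2 or 3 they were 2562, 3472 and 2735. Srd5a1 lost its call in 5 of the 6 fits, with log2 differences of -2.24 to -0.97 over the 6 (adjusted p 1.01e-05 to 0.188), and was called without STZ mouse 3. Akr1c6 lost its call in 4 fits (-1.13 to -0.53, adjusted p 0.000569 to 0.0690) and Hsd11b1 in 3 (0.44 to 0.69, adjusted p 0.00435 to 0.0729). For Akr1c6 these were the fits without STZ mouse 1 or 2 or Con mouse 2 or 3, and for Hsd11b1 those without STZ mouse 1 or 2 or Con mouse 1.

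Hsd3b5 belongs to a larger group of genes with a sex difference in mouse liver, and such genes moved with it. Of the 12 tested genes of a list of 13 male-biased liver genes, 10 were lower in STZ against Con and 0 higher (median log2 difference -3.39). Of the 13 tested genes of a list of 15 female-biased genes, 10 were higher and 0 lower (median 3.99). Over all tested genes 33.0% were called higher and 5.52% lower, and the median was 0.21. The male-biased list summed to 14191 to 18562 RPKM in Con and 3118 to 6275 in STZ, and the female-biased list to 9.45 to 25.9 in Con and 504 to 3997 in STZ. Kupffer cell markers summed to 52.8 to 82.2 RPKM in Con and 83.3 to 188 in STZ, and stellate cell and fibroblast markers to 67.4 to 78.3 and 106 to 125. Called higher were 2 of 6 Kupffer and 1 of 5 stellate and fibroblast markers, beside 33.0% of all tested genes, and 0 were lower. Most of the stellate and fibroblast sum was Dcn (mean 64.9 RPKM in Con, 107 in STZ). The Kupffer sum rose mostly through Marco (2.70 and 32.7) and Cd5l (25.7 and 48.8). The part of any of these lists in the changes of the 10 genes was not tested.

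The genes whose pattern over the 18 libraries was most like Hsd3b5 and Cyp17a1 were found by the root mean square difference of log2(RPKM + 1) after centring on Con, among 10813 other genes. For Hsd3b5 they were Elovl3 (0.74), a fatty acid elongase, Selenbp2 (1.46), a selenium-binding protein, and Mup21 (1.59), a major urinary protein. Elovl3 averaged 226 RPKM in Con and 4.09 in STZ. For Cyp17a1 they were Slc22a26 (0.79), an organic anion transporter, Lepr (0.92), the leptin receptor, and Cyp2c37 (0.93), a cytochrome P450. Lepr averaged 0.150 RPKM in Con and 36.7 in STZ. Elovl3 and Selenbp2 are also on the list of male-biased genes.

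Other genes of steroid metabolism were compared from 4 lists of 53 genes, of which 51 were in the table and 34 were tested. In STZ against Con 23 of the 34 were called (67.6%, beside 38.5% of all tested genes), 17 higher and 6 lower, with a median log2 difference of 0.41. With median-ratio scaling 14 were called, and with 1 mouse left out 12 to 24: 13 without STZ mouse 1, 14 without STZ mouse 2, 15 without Con mouse 1 and 12 without Con mouse 3. Calls over all tested genes fell too, from 4087 to 2893 with median-ratio scaling, 3187 without STZ mouse 1 and 2630 without STZ mouse 2. They fell to 2562 without Con mouse 1 and to 2735 without Con mouse 3. Over all tested genes 33.0% were higher and 5.52% lower, against which the counts of each list are to be read. Among other hydroxysteroid dehydrogenases, 6 of 11 tested were higher and 2 lower. Hsdl2, a peroxisomal dehydrogenase-like protein, was at 21.9 ± 2.40 RPKM in Con and 56.6 ± 4.39 in STZ (log2 difference 1.33, adjusted p = 0.00100), while Hsd17b12, which also reduces fatty acyl chains, was at 81.8 ± 4.0 and 55.9 ± 10.0 (-0.55, adjusted p = 0.00599). Hsd17b11 (0.99) and Hsd17b4 (0.48, not called with median-ratio scaling) were higher as well and Hsd3b7, of bile acid synthesis, was lower (-0.70). Hsd3b6 and Hsd3b1, further members of the Hsd3b family, were listed at 0 in 14 and 11 of the 18 libraries.

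Among other steroid and aldo-keto reductases, 5 of 8 tested were higher in STZ and 0 lower, while Srd5a1 and Akr1c6 were lower. Cbr1, a carbonyl reductase, was at 38.3 ± 4.17 RPKM in Con and 244 ± 98.9 in STZ (log2 difference 2.56, adjusted p = 0.000471). Akr1d1, the 5-beta-reductase, was at 56.2 ± 10.5 and 138 ± 37.0 RPKM (1.26, adjusted p = 0.00155), and Akr1c19 at 27.2 ± 2.96 and 68.4 ± 13.9 RPKM (1.28). Among steroidogenic cytochromes and their redox partners, 3 of 9 were higher, a share close to that of all genes, and 4 lower. Por, the reductase that passes electrons to Cyp17a1 and other microsomal cytochromes P450, rose from 40.7 ± 3.0 to 395 ± 188 RPKM (3.11, adjusted p = 0.000342), and Cyb5a, cytochrome b5, from 1282 ± 302 to 1910 ± 240 RPKM (0.59, adjusted p = 0.0365). Cyp7b1, the oxysterol 7-alpha-hydroxylase, fell from 242 ± 15.0 to 50.4 ± 54.6 RPKM (-2.77, adjusted p = 0.00454). Cyp21a1, the 21-hydroxylase, was called lower (-1.42) at levels of 6.71 ± 0.594 and 2.06 ± 1.41 RPKM, Cyb5r3 was lower (-0.35) and Fdxr higher (0.51). Of 6 tested steroid hormone receptors and carriers, 3 were higher: the xenobiotic receptors Nr1i2 (0.92) and Nr1i3 (1.48), and Serpina6, the corticosteroid-binding globulin, at 141 ± 32.1 RPKM in Con and 605 ± 649 in STZ (1.57, adjusted p = 0.0456). Of these 17 named genes 10 were called under every alternative run. With 1 mouse left out, Cyp21a1 lost its call in 5 of 6 fits, Serpina6, Cyb5a, Fdxr and Cyb5r3 in 4 each and Hsd3b7 in 3. Median-ratio scaling also ended the calls of Serpina6, Cyb5a and Fdxr.

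**Figure D2:**
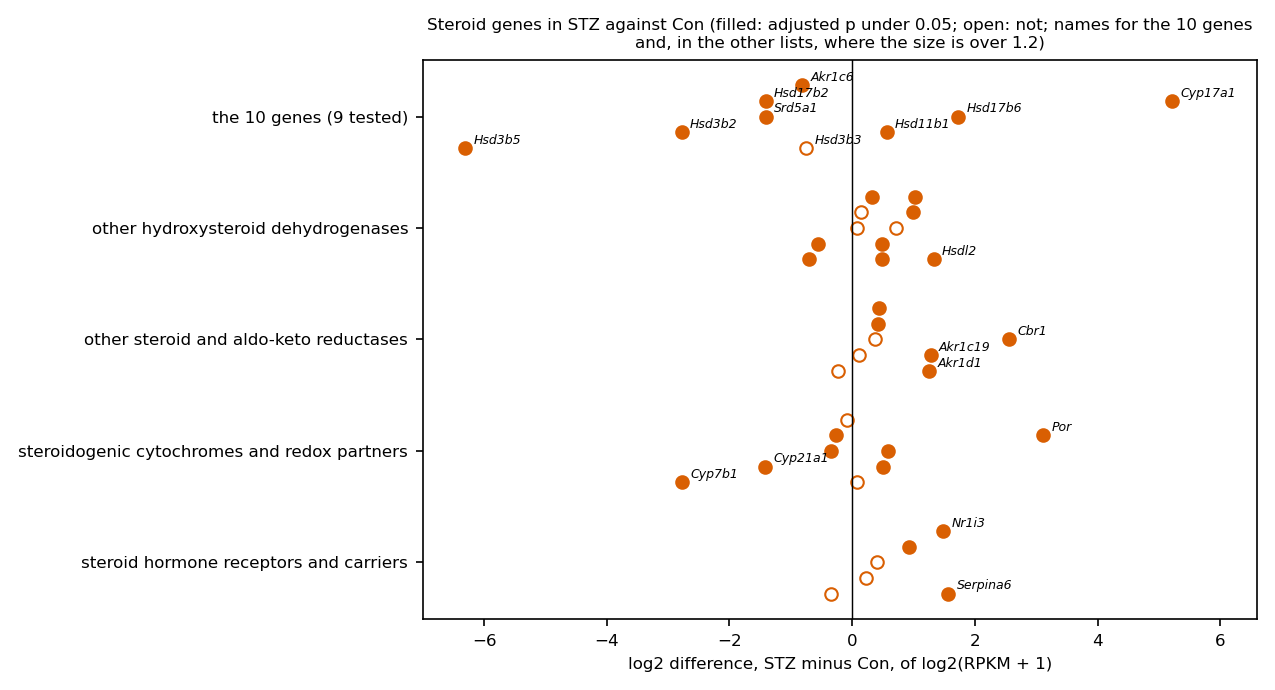
Log2 differences between STZ and Con, each point 1 gene, for the 9 tested genes of the 10 and for 4 lists of other steroid genes; filled points have an adjusted p under 0.05, and the height within a row only separates points. Hsd3b5 at -6.31 and Cyp17a1 at 5.21 are the extremes of all 5 rows.

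The transplants were compared with STZ to ask whether microbiota changed these genes in injected mice. Mean levels of the tested genes other than Hsd17b6 were nearer to Con in A10-FMT than in STZ, but no gene passed the test. In A10-FMT against STZ 0 of 9 genes were called by limma (6 at an unadjusted p under 0.05), beside 0.226% of all tested genes, and the median log2 difference was 0.84 beside -0.05 over all genes. In Con-FMT against STZ 0 of 9 were called (5 unadjusted), beside 0.00943% of all tested genes, with medians of 0.79 and -0.03. Both comparisons share the 3 STZ mice with each other and with STZ against Con. A deviation of those mice alone would thus move the transplant differences opposite to that of STZ against Con. Rescaling by the median ratio gave 40.0% instead of 29.2% of the calls over all genes as higher in A10-FMT against STZ, and 26.0% of 73 calls instead of 0% of 1 in Con-FMT against STZ.

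Akr1c6 came nearest to the threshold in both. It was at 772.22, 872.06 and 830.79 RPKM in A10-FMT and 733.47, 766.21 and 754.63 RPKM in Con-FMT, all above the highest STZ value of 566.59 RPKM. The log2 difference from STZ was 1.15 (SE 0.24, adjusted p = 0.0619) in A10-FMT and 1.02 (SE 0.24, adjusted p = 0.0754) in Con-FMT. Srd5a1 was at 25.08, 27.65 and 23.71 RPKM in A10-FMT and 15.44, 23.09 and 23.48 RPKM in Con-FMT. These values lay far above STZ mice 1 and 2 and overlapped that of STZ mouse 3 (log2 differences 1.66, SE 0.51, adjusted p = 0.122, and 1.35, SE 0.51, adjusted p = 0.178).

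Hsd3b2 was at 38.91, 59.22 and 36.71 RPKM in A10-FMT and 16.53, 54.79 and 52.34 RPKM in Con-FMT, between Con and STZ mice 1 and 2 (log2 differences from STZ 1.92, adjusted p = 0.179, and 1.65, adjusted p = 0.235). Hsd17b2 was at 138.86, 139.75 and 82.55 RPKM in A10-FMT and 113.22, 158.9 and 127.4 RPKM in Con-FMT (0.72, adjusted p = 0.159, and 0.89, adjusted p = 0.112). Both genes lay below every Con mouse in both transplanted groups. Without STZ mouse 3, 4 genes were called higher than STZ in both comparisons: Hsd3b2 (log2 differences 2.95 and 2.68 in A10-FMT and Con-FMT), Srd5a1 (2.49 and 2.18), Akr1c6 (1.46 and 1.32) and Hsd17b2 (1.01 and 1.18). Their adjusted p were 0.00386, 1.04e-05, 0.00105 and 0.0172 in A10-FMT and 0.00509, 2.95e-05, 0.00135 and 0.00804 in Con-FMT. Leaving out any 1 other mouse of the groups compared gave no call. Over all genes the calls rose from 24 to 1343 in A10-FMT against STZ without STZ mouse 3, and from 1 to 1636 in Con-FMT against STZ.

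Hsd3b5 and Cyp17a1, the genes with the largest differences between STZ and Con, varied widely among the transplanted mice. Hsd3b5 was at 3.04, 24.94 and 1.21 RPKM in A10-FMT and 0.37, 21.3 and 2.12 RPKM in Con-FMT. Mouse 2 of each group had a level above that of STZ mouse 3, and the differences from STZ were 1.22 (95% interval -1.32 to 3.77) and 0.79 (-1.75 to 3.34) on the log2 scale. Without Con-FMT mouse 2 the latter was -0.35. Cyp17a1 was at 30.0, 5.37 and 10.04 RPKM in A10-FMT and 39.39, 1.92 and 20.05 RPKM in Con-FMT, values that overlapped STZ mouse 3 alone of the STZ mice. Con-FMT mouse 2 was near the highest Con mouse (1.05 RPKM). The log2 differences from STZ were -2.25 (SE 0.87, adjusted p = 0.185) and -2.19 (SE 0.87, adjusted p = 0.195). Hsd17b6 was at 603.47, 607.4 and 542.18 RPKM in A10-FMT, all above the STZ values (0.37, adjusted p = 0.447), and Hsd3b3 at 69.89, 168.44 and 151.71 RPKM (0.84, adjusted p = 0.225).

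**Figure D3:**
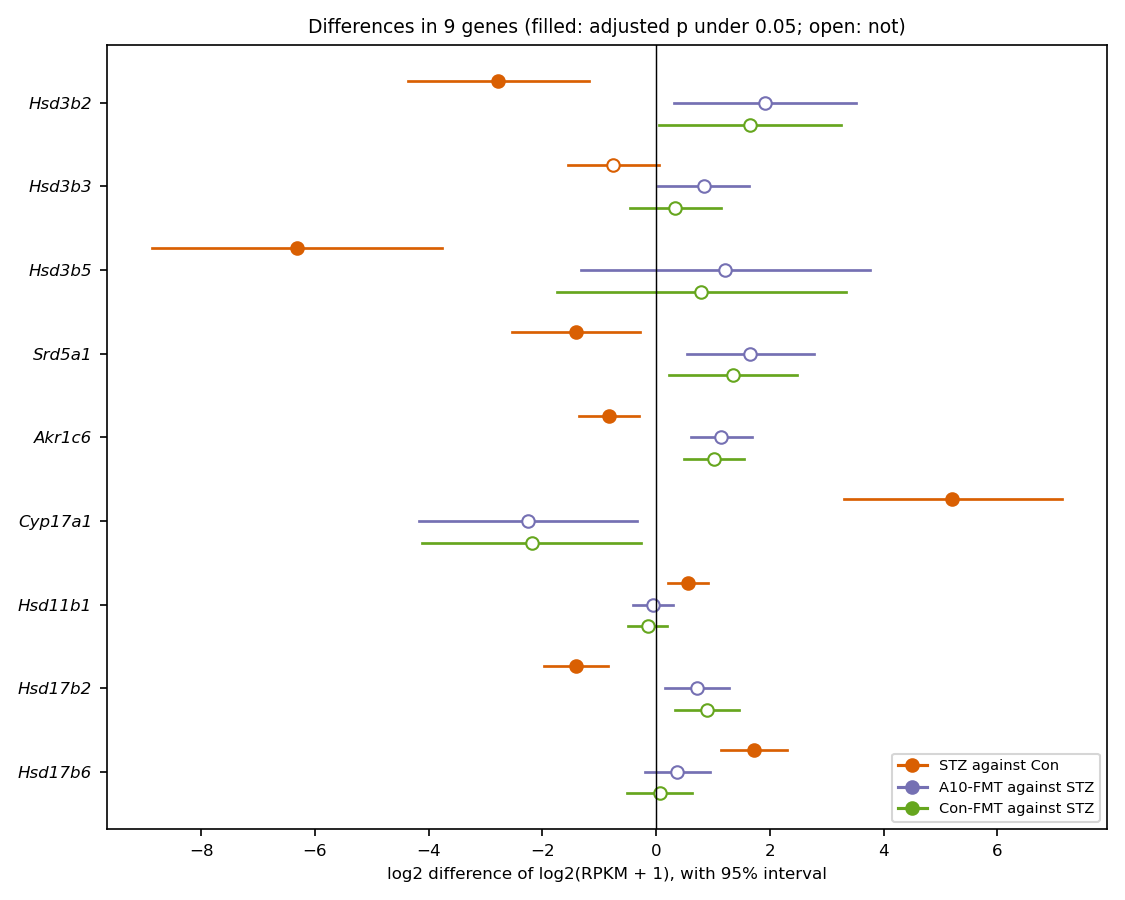
Log2 differences of log2(RPKM + 1) with 95% intervals for the 9 tested genes in STZ against Con, A10-FMT against STZ and Con-FMT against STZ; filled points have an adjusted p under 0.05. For the 8 genes other than Hsd17b6 both transplant points lie on the other side of 0 from the STZ point, and all transplant points are open.

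Hsd3b5 and Cyp17a1 were set side by side within the injected groups. In STZ, A10-FMT and Con-FMT, 3 of the 4 injected groups, the mouse with the highest Hsd3b5 was the mouse with the lowest Cyp17a1 (mouse 3 in STZ and mouse 2 in both transplanted groups). In STZ+AOS this was not so: Hsd3b5 was at 0.22, 0.23 and 0.09 RPKM, about 2 to 4 reads, and Cyp17a1 at 118.87, 129.06 and 53.02 RPKM. In uninjected liver the same held for mouse 2 of Con (Hsd3b5 257.46 and Cyp17a1 0.29 RPKM) and mouse 2 of AOS (225.06 and 0.5 RPKM). Cyp17a1 was close to the limit of detection in these 2 mice. Among the other mice of a transplanted group the order was opposite in Con-FMT and not in A10-FMT, where mouse 1 was above mouse 3 for both genes. The relation was noticed in these values and was not tested. The male-biased list of A10-FMT mice summed to 4811 to 9013 RPKM and that of Con-FMT mice to 3634 to 7643 RPKM, and the female-biased list to 200 to 835 and 55.7 to 487, so that these sums too lay between Con and STZ or overlapped STZ.

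**Figure D4:**
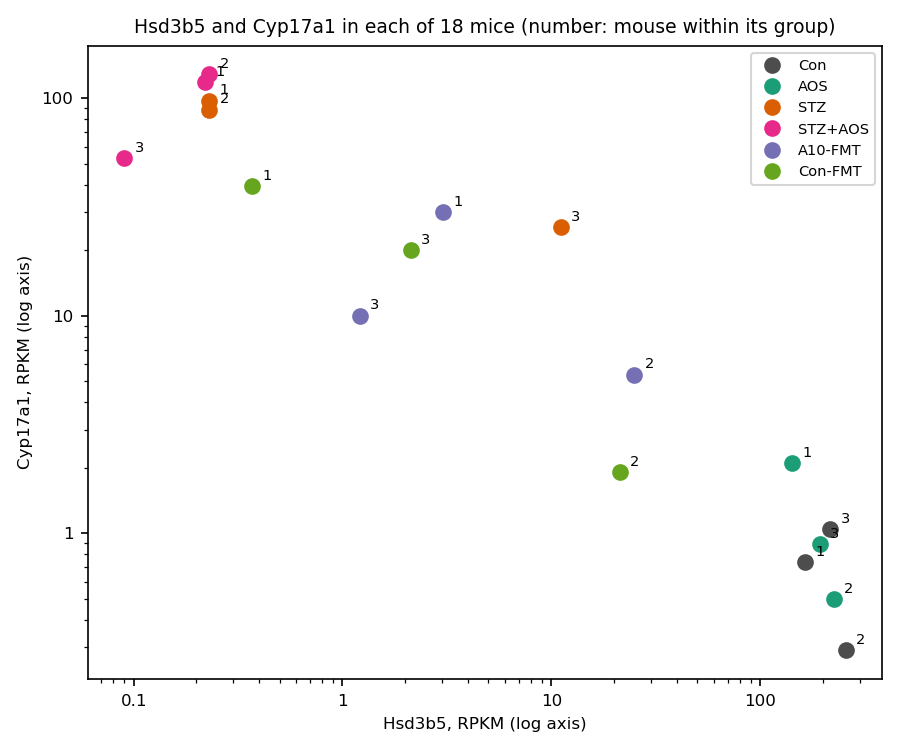
Hsd3b5 (horizontal) against Cyp17a1 (vertical), RPKM on log axes, each point 1 of 18 mice with its number within the group. The Con and AOS mice lie at the lower right, the STZ+AOS mice and STZ mice 1 and 2 at the upper left, and the transplanted mice and STZ mouse 3 (11.07 and 25.63 RPKM) between them.

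Against Con, the transplanted groups show what remained different after streptozotocin and transplant. In A10-FMT, Cyp17a1, Hsd17b6 and Hsd11b1 were higher and Hsd3b5 lower than in Con, while Hsd3b2, Hsd3b3, Srd5a1, Akr1c6 and Hsd17b2 did not pass the test. This was 3 of 9 higher and 1 lower, beside 18.4% of all tested genes called, 15.9% higher and 2.47% lower. The log2 differences were 2.10 for Hsd17b6 (SE 0.26, adjusted p = 0.00112), 2.96 for Cyp17a1 (SE 0.87, adjusted p = 0.0386), 0.50 for Hsd11b1 (SE 0.16, adjusted p = 0.0490) and -5.09 for Hsd3b5 (SE 1.16, adjusted p = 0.0149). Srd5a1 (0.26, 95% interval -0.87 to 1.38) and Akr1c6 (0.33, -0.20 to 0.85) had intervals that spanned 0, as had Hsd3b2 (-0.86, -2.46 to 0.74), while that of Hsd17b2 (-0.69, -1.25 to -0.12) did not. Hsd17b6 alone was called in every fit with 1 mouse left out. The count of called genes was 1 without A10-FMT mouse 1 or 3 or Con mouse 1 or 3, 2 without Con mouse 2 and 3 without A10-FMT mouse 2. Over all tested genes these fits gave 547 to 1468 calls, beside 1953 with all mice. Hsd11b1 lost its call in all 6 fits (adjusted p 0.0510 to 0.177), Cyp17a1 in 5 (2.33 to 3.48, adjusted p 0.0451 to 0.128) and Hsd3b5 in 4 (-6.13 to -4.36, adjusted p 0.0141 to 0.0667). With median-ratio scaling Hsd17b6 and Hsd3b5 were called, the log2 median of all genes moved by -0.17 and 55.1% instead of 86.6% of all calls were higher.

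In Con-FMT, Cyp17a1 and Hsd17b6 were higher and Hsd3b5 lower than in Con, 2 and 1 of 9 genes beside 19.4% of all tested genes called, 17.5% higher and 1.89% lower. Hsd17b6 was at 601.48, 397.0 and 430.43 RPKM, each above every Con mouse (log2 difference 1.78, SE 0.26, adjusted p = 0.00275). Cyp17a1 (3.03, SE 0.87, adjusted p = 0.0350) and Hsd3b5 (-5.52, SE 1.16, adjusted p = 0.0116) followed the direction seen in STZ. Hsd11b1 (0.42, adjusted p = 0.0849), Hsd17b2 (-0.52, adjusted p = 0.170) and Hsd3b2 (-1.13, adjusted p = 0.279) were not called. Without Con-FMT mouse 1, Hsd17b6 alone was called, while calls over all tested genes fell from 2059 to 603. Cyp17a1 lost its call without any 1 mouse other than Con-FMT mouse 2 (2.24 to 4.13 over the 6 fits, adjusted p 0.00539 to 0.143), and with median-ratio scaling (2.90, adjusted p = 0.0628), which moved the median of all genes by -0.19 and the share of higher calls from 90.3% to 55.8%. This comparison and the previous one share the 3 Con mice.

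A10-FMT against Con-FMT asks whether the donors' AOS treatment mattered. No gene was called (limma, 0 of 9, 0 also at an unadjusted p under 0.05), beside 0% of all tested genes. The greatest log2 difference was 0.49 for Hsd3b3 (95% interval -0.30 to 1.29), at 69.89, 168.44 and 151.71 RPKM in A10-FMT and 80.9, 88.74 and 88.3 RPKM in Con-FMT. For Hsd17b6 it was 0.32 (-0.26 to 0.89). The interval for Hsd3b5 (-2.12 to 2.97) was wide, so that a several-fold difference in either direction was not detectable with these mice. Srd5a2, not tested, was at 0.74, 0.75 and 1.1 RPKM in A10-FMT and 0.39, 0.27 and 0.54 RPKM in Con-FMT, without overlap.

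No tested gene of the 10 was called with AOS alone. In AOS against Con 0 of 9 genes were called by limma over 10822 genes (1 unadjusted, Hsd11b1), beside 0.00924% of all tested genes. Hsd11b1 was at 638.22, 533.16 and 551.75 RPKM in AOS, all above the Con mice (log2 difference 0.38, SE 0.15, adjusted p = 0.647). Hsd3b5 was at 142.39, 225.06 and 193.22 RPKM and Cyp17a1 at 2.11, 0.5 and 0.89 RPKM, overlapping Con. Srd5a2 was at 0.71, 1.12 and 0.69 RPKM, about 13 to 21 reads, above all its Con values (mean RPKM 2.40-fold higher), but it was too low for the filter and was not called without it. The sum of the male-biased list was 8366 to 10178 RPKM in AOS, below that of every Con mouse. Of its 12 tested genes 0 were called in AOS against Con (median log2 difference -0.46, beside 0.06 over all tested genes). Much of the sum was Gstp1 (mean 7549 RPKM in Con, 3991 in AOS) and Mup20 (4284 and 1189). Other genes of the list, such as Cyp2d9 (746 and 822), had higher means in AOS.

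AOS given to injected mice was compared with STZ. In STZ+AOS against STZ 0 of 9 genes were called (limma, 0 unadjusted), beside 0% of all tested genes. The nearest was Hsd3b3, at 33.9, 77.79 and 15.41 RPKM, all below STZ mice 1 and 3 (log2 difference -0.95, 95% interval -1.92 to 0.03, adjusted p = 0.811). In STZ+AOS the levels of Hsd3b5, Hsd3b2 (2.19, 6.88 and 10.07 RPKM) and Srd5a1 (5.15, 6.03 and 9.5 RPKM) were in every mouse below those of STZ mouse 3.

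STZ+AOS against AOS gives the streptozotocin effect in AOS-treated mice, in 6 animals that the STZ against Con comparison did not use. Its spread was estimated from all 18 libraries, Con and STZ among them, so the tests are not fully separate. With only the groups compared, calls over all tested genes fell from 4102 to 2483. Of 9 genes 2 were higher and 6 lower, beside 37.9% of all tested genes called, 31.8% higher and 6.11% lower. Hsd3b5 (-7.29, SE 1.00, adjusted p = 0.000215), Hsd3b2 (-3.50, SE 0.69, adjusted p = 0.00166), Srd5a1 (-1.76, SE 0.46, adjusted p = 0.00807), Akr1c6 (-1.63, SE 0.36, adjusted p = 0.00314) and Hsd17b2 (-1.42, SE 0.26, adjusted p = 0.00100) were lower, and Cyp17a1 (5.51, SE 0.79, adjusted p = 0.000293) and Hsd17b6 (1.21, SE 0.37, adjusted p = 0.0176) higher. These 7 genes had the direction of STZ against Con. Hsd3b3 was also called lower here (-1.93, SE 0.46, adjusted p = 0.00504). Hsd11b1 was not called (0.10, 95% interval -0.23 to 0.42), and its difference turned to -0.15 with median-ratio scaling. Akr1c6 was at 118.46, 385.11 and 393.47 RPKM in STZ+AOS against 769.37, 838.85 and 825.48 RPKM in AOS. Hsd17b6 was at 194.54, 719.06 and 520.78 RPKM against 177.07, 184.94 and 177.33 RPKM, and lost its call without STZ+AOS mouse 2 (0.82, adjusted p = 0.0802) or mouse 3 (1.05, adjusted p = 0.0636). With median-ratio scaling, which moved the median of all genes by -0.20 and the share of higher calls from 83.9% to 49.9%, it was at 0.97 (adjusted p = 0.0592). The other 7 called genes stayed called in all 6 fits with 1 mouse left out. The sum of 6 pancreatic acinar markers reached 59.1 RPKM in 1 STZ+AOS library, against 4.25 RPKM in the median STZ+AOS library and 31.6 to 40.8 RPKM in Con, where most of it was Cela1 (35.9 RPKM), and its part in these differences was not tested.

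The streptozotocin effect was tested against itself with and without AOS. By limma 0 of 9 genes differed (1 unadjusted, Hsd11b1), beside 0% of all tested genes. The differences in effect were -1.18 for Hsd3b3 (95% interval -2.56 to 0.20), -0.80 for Akr1c6 (-1.87 to 0.27) and -0.47 for Hsd11b1 (-0.92 to -0.01, adjusted p = 0.856). The call of Hsd3b3 in AOS-treated mice and its absence in the others is thus not shown to be a difference.

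**Figure D5:**
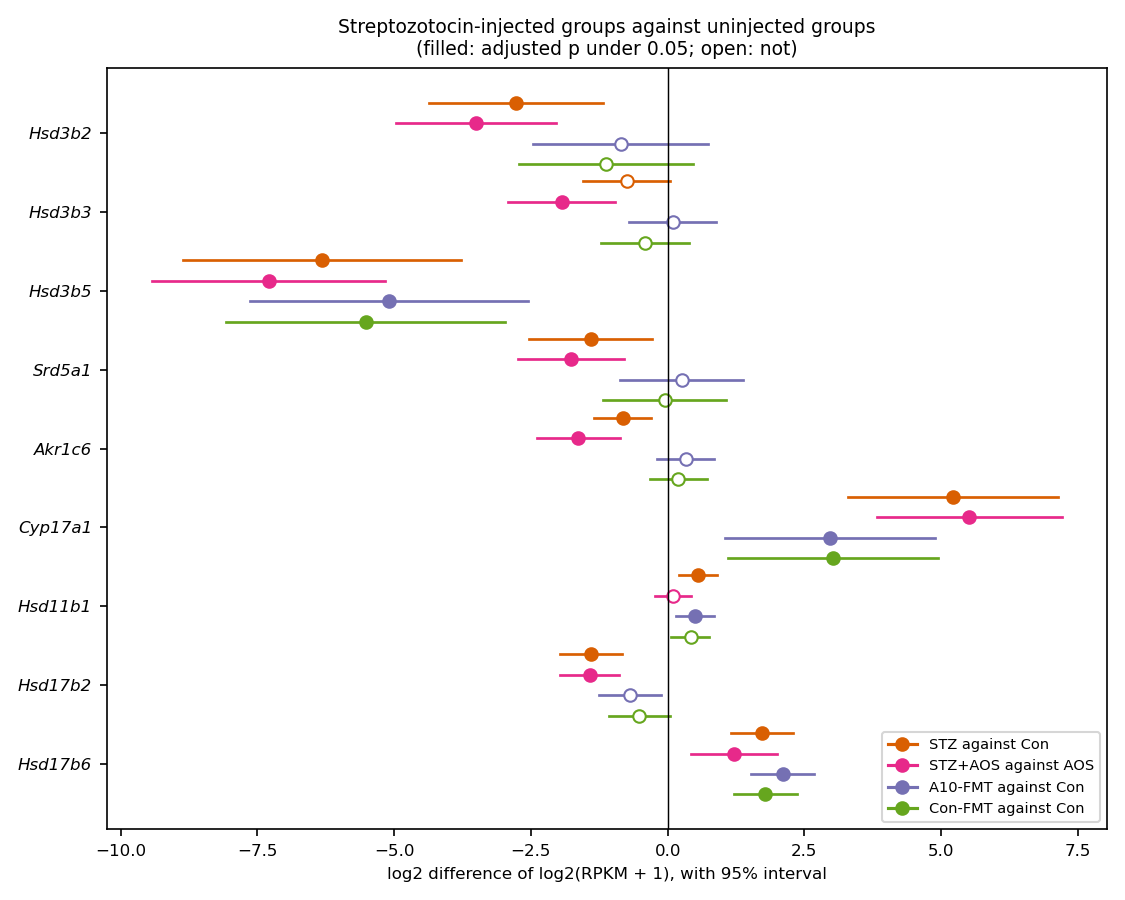
Log2 differences of log2(RPKM + 1) with 95% intervals for the 9 tested genes, in 4 comparisons of an injected with an uninjected group; filled points have an adjusted p under 0.05. Hsd3b5, Cyp17a1 and Hsd17b6 are filled in all 4 comparisons, whereas Srd5a1, Akr1c6, Hsd3b2 and Hsd17b2 are filled in STZ against Con and STZ+AOS against AOS and open in both transplanted groups.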

How the data were processed

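Liver RNA of 18 mice was analysed. Per the study's methods, the authors enriched mRNA with oligo(dT), sequenced it on an Illumina HiSeq instrument, mapped reads with SOAPaligner and computed RPKM, the unit of the deposited values. The submitters' processing notes name Bowtie 0.12.2 and mm10 instead, and which was used for these values was not settled. The table holds 19057 symbols (26 date-like, 3 repeated), and 0 value columns were left unused. Groups follow the treatment labels. Nothing states that the mice were caged or processed as blocks.

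The filter kept genes that reached 1 RPKM in 3 or more libraries, and 1 was added before log2. Groups were compared in R 4.3.3 with limma 3.58.1, by a two-sided moderated test with a mean-variance trend. P-values were adjusted by Benjamini-Hochberg over all genes of a comparison, and values under 0.05 count as called. Comparisons among Con, STZ, A10-FMT and Con-FMT used their 12 libraries (10602 genes), those with AOS or STZ+AOS all 18 (10822 genes). Fold changes of RPKM are ratios of group means. The fit was run on simulated data with the same spread in every gene, unlike these data, and nothing is concluded from it here. DEGseq, which the authors used, needs read counts and was not run.

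The 10 genes, the lists and the tests were chosen with earlier results of these data known. All 10 genes are named in every comparison. From each list of other steroid genes at most 3 called higher and 3 called lower in STZ against Con, with the smallest adjusted p, are named, and the 3 genes nearest in pattern to the called genes with the largest rise and fall. Hsd3b1, Hsd3b6, the cell type markers, Cela1, Gstp1, Mup20 and Cyp2d9 were named after their values were seen. The rule for reading depth from steps was also set after the values were seen. Alternatives were median-ratio scaling, a pseudocount of 0.1, no filter, no trend and another set of libraries (all 18 or only the groups compared). Others were a replicate block and leaving out each mouse of the groups compared in turn. Positions and transcripts are from GENCODE M21, promoters from RefSeq, and alignments were local (biopython 1.88).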

Additional observations from a re-analysis of the deposited data

How the results depend on the processing

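The 53 log2 differences named for the 10 genes were recomputed under every alternative. Of 654 such values 595 kept direction and side of the threshold, 49 lost their call, 8 gained one and 2 reversed. The reversed ones were uncalled: Hsd11b1 in STZ+AOS against AOS (-0.15 with median-ratio scaling) and Hsd3b5 in Con-FMT against STZ (-0.35 to 1.89 with 1 mouse left out). The pseudocount of 0.1 changed no call. With median-ratio scaling 2 genes were called in A10-FMT against Con and 14 other steroid genes in STZ against Con. With 1 mouse left out the called genes numbered 4 to 8 in STZ against Con, 0 to 4 in either transplanted group against STZ and 1 to 3 in either against Con, and the other steroid genes 12 to 24. For the 17 other steroid genes named, whose recomputation was added after seeing the data, 166 of 204 values in STZ against Con kept their call, 38 lost it and 0 reversed. Without the filter, Srd5a2 was tested and called in A10-FMT against Con.

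Whether same-numbered mice form pairs was not settled. The correlation of their deviations exceeded 0.1 in 16 of 45 pairs of same-numbered mice of different groups (-0.25 to 0.47, median 0.03). Differently numbered mice were not compared. With the replicate block the called genes were 8 for STZ against Con, 3 for A10-FMT against Con, where Hsd11b1 lost its call (adjusted p = 0.0736), and 3 for Con-FMT against Con. The cause of these changes was not tested.

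Over all genes, median-ratio scaling gave 95, 73, 1164 and 874 calls, instead of 24, 1, 1953 and 2059, in A10-FMT and Con-FMT against STZ and against Con. Calls in STZ against Con fell from 4087 to 2562 without Con mouse 1, and to 2630 without STZ mouse 2. With 3 mice a group, small changes were not detectable, and levels under 1 RPKM rest on few reads.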
